A study of Mus musculus with 18 samples.

Results

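A set of 9 genes that pattern the midbrain and hindbrain, or mark neurons born there, was followed through the 18 polyA RNA libraries of the series. They are Pax7, Pou4f2, Pou4f1, Tfap2b, Mab21l2, Irx3, Irx2, En1 and Hoxb3, which make up 9 of the 34745 genes in the deposited table. They were taken by gene name from a group whose brain counts had already been seen to be higher in SeMSNs libraries, starting from near the count floor. Their difference between SeMSNs and control brain is therefore given as a description, with no test, and tests were kept for kidney and gastrocnemius. The libraries came from wild-type male C57BL/6 mice, with 3 libraries from SeMSNs mice and 3 from old controls in each of brain, kidney and gastrocnemius. SeMSNs is called a nano-selenium supplement by the submitters and was given by gavage, while old controls had the same volume of normal saline. All animals were on a normal diet, entered at 18 months of age and gave tissue at 23 months. The labels differ on the dose, which is 10 mg/kg every day in one and 5 mg/kg at 1 mg/mL, 2 times in 2 days, in another.

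During development a signalling centre at the boundary between midbrain and hindbrain, built around Wnt1, Fgf8 and the Engrailed genes, sets the identity of tissue on both sides. Pax7 and Pax3 mark the dorsal midbrain that forms the superior and inferior colliculi, and Hox genes give the rhombomeres of the hindbrain their order along the axis and are off in forebrain and midbrain. Many of these factors stay on in adult neurons of the region that they helped to build, so that their RNA in adult brain is tied to place.

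The promoters of 3 of the genes are shown because their brain counts moved together and because 2 of the 3 hold one of the short motifs searched. The sequences are RefSeq's for GRCm38.p6, from 250 bases before to 50 after the start of a transcript, 5′ to 3′ on the strand of the gene. Tfap2b, with the highest brain counts of the genes, lies at chr1:19211804-19212103 on the plus strand, Irx2 at chr13:72628570-72628869 on the plus strand, and Mab21l2 at chr3:86548234-86548533 on the minus strand. Capitals mark a match to the AP-2 motif GCCNNNGGC in Irx2 and to the TATA-box motif TATAAA in Mab21l2. These are matches of letters, the Mab21l2 match lies far before the start, and use of either was not tested.
Tfap2b: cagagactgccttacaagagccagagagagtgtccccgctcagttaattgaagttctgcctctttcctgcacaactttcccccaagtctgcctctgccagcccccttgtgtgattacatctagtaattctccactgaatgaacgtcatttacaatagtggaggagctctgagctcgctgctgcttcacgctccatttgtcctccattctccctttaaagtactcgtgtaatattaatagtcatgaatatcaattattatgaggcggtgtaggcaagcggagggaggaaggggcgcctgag
Irx2: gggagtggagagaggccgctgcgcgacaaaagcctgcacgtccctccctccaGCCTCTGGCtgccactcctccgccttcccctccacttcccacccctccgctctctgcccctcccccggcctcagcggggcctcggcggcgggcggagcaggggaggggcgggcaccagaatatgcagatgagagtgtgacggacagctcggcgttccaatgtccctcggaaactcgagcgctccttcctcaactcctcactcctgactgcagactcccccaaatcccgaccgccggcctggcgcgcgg
Mab21l2: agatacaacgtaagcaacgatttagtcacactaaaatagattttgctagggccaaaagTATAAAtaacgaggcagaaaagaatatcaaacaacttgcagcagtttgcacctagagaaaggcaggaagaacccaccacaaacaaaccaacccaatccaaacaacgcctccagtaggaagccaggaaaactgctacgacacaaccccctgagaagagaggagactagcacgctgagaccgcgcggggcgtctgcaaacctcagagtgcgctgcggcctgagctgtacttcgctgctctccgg
A promoter was found by name for 8 of the genes, and Hoxb3 is named only. Among these 8, GCCNNNGGC occurred in 1, TATAAA in 1 and the homeodomain core TAATTA in 0, searched on both strands. Each match is the only one in its promoter, so that no 2 matches share bases. Over all 32851 promoters of the table the shares were 16.6% for GCCNNNGGC, 13.6% for TATAAA and 5.29% for TAATTA. The GC content of the 8 lay between 48.3% in Tfap2b and 78.3% in Pou4f1, against a median of 52.7% over all promoters.

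Library totals ran from 17504652 to 18602670 counts for brain, 17357799 to 22146406 for kidney and 18262444 to 20758114 for gastrocnemius. In brain 3 counts, the floor that a count of 0 allows, equal 0.161 to 0.171 CPM (counts scaled to library size), and this floor covers counting error only. Replicates were distinct libraries, with a chi-square per degree of freedom of 15.8 to 127 over 18 pairs of replicates. The labels do not tie libraries to single mice, so p-values measure the spread between libraries, which may be technical. Summed over 5 defining markers each, the brain list held 4355 to 5772 CPM in brain libraries and at most 21.5 CPM elsewhere, and the kidney list held 6916 to 9250 CPM in kidney and at most 3.72 CPM elsewhere. The muscle list held 86948 CPM or more in every gastrocnemius library and at most 10.7 CPM in 11 of the other 12, but 1082 CPM in control brain library 2, which is 1.11% of the mean of control gastrocnemius.

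The brain libraries also differed in the brain regions that their RNA marked. Cerebellar markers (16 genes, among them Pcp2, Car8, Gabra6 and Cbln3) summed to 6113 and 5823 CPM in SeMSNs libraries 1 and 2, to 226 CPM in SeMSNs library 3 and to 253 to 322 CPM in controls. Striatal markers (16 genes) summed to 1939, 697 and 2305 CPM in controls 1 to 3 and to 475 to 611 CPM with SeMSNs, and hypothalamic markers (14 genes) to 258, 77.9 and 274 CPM in controls and 21.5 to 47.9 CPM with SeMSNs. SeMSNs library 3 thus stood with the controls for cerebellar markers and with the other SeMSNs libraries for striatal and hypothalamic ones. The part of these regional levels in the values below was not tested. In whole tissue, fewer cells of a type and less RNA per cell cannot be told apart.

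The paired-box factor Pax7 (ENSMUSG00000028736; GRCm38, chromosome 4, 139737062 to 139833528, minus strand) is kept in adult neurons of the superior colliculus and in muscle satellite cells. In brain it had 1, 4 and 3 counts in controls 1 to 3 and 62, 31 and 52 counts in SeMSNs libraries 1 to 3. No control had more than 4 counts, and every SeMSNs library lay above every control. The level was 0.154 ± 0.0919 CPM (SD, n = 3) in controls and 2.63 ± 0.84 CPM with SeMSNs, a fitted log2 difference of 4.05 ± 0.523 (SE).

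Pou4f2 and Pou4f1 encode POU-domain factors, also called Brn3b and Brn3a, that specify projection neurons. Pou4f2 is best known from retinal ganglion cells and is also made in the colliculi, and Pou4f1 marks the medial habenula, the red nucleus and sensory ganglia. Pou4f2 (ENSMUSG00000031688; chromosome 8, 78433010 to 78436645, minus strand) had 1, 1 and 0 counts in control brain and 44, 34 and 16 with SeMSNs. Its controls were all below the floor and its SeMSNs libraries all above it. The fitted log2 difference, 5.25 ± 0.751, was the largest of the genes and rests on a control sum of 2 counts, so that its size depends on the prior count of the fit.

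Pou4f1 (ENSMUSG00000048349; chromosome 14, 104461676 to 104467999, minus strand) gave a narrower separation, with 16, 8 and 3 counts in controls and 40, 17 and 45 with SeMSNs. The groups were parted by 1 count, SeMSNs library 2 lying just above control 1, and by a ratio of 1.04 in CPM. Its means were 0.514 ± 0.367 and 1.85 ± 0.802 CPM, a log2 difference of 1.83 ± 0.63.

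Tfap2b (ENSMUSG00000025927; chromosome 1, 19208914 to 19238576, plus strand) encodes AP-2 beta, a factor of neural crest, kidney tubule, midbrain and cerebellar inhibitory neurons. It had 28, 18 and 9 counts in control brain and 782, 703 and 165 with SeMSNs, and the lowest SeMSNs library was 5.70 times the highest control in CPM. Levels went from 1.05 ± 0.537 CPM to 30.0 ± 18.3 CPM, a log2 difference of 4.83 ± 0.723. It was the one gene of the set to come near the middle of the brain: with SeMSNs its mean of 3.07 FPKM (counts scaled to gene length and library size) stood above 43.9% of the genes tested, against 0.715% for its control mean of 0.103 FPKM.

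Mab21l2 (ENSMUSG00000057777; chromosome 3, 86545581 to 86548629, minus strand) belongs to the Mab-21 family and is needed for eye development and expressed in the dorsal midbrain. It had 15, 9 and 10 counts in controls and 163, 79 and 81 with SeMSNs. The lowest SeMSNs library was 5.16 times the highest control, and the log2 difference was 3.17 ± 0.409, the smallest SE of the genes. Exons of Lrba on the other strand cover 36.0% of its exon bases. Lrba had 691 to 1055 counts in control brain and 679 to 1009 with SeMSNs, so its groups overlapped. Whether reads were counted by strand is not given in the sources used here, so reads of the 2 genes may be mixed.

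The Iroquois homeodomain factors Irx3 and Irx2 pattern the neural tube and the segments of the developing nephron. Irx3 (ENSMUSG00000031734; chromosome 8, 91798525 to 91801916, minus strand) had 20, 16 and 23 counts in control brain and 174, 134 and 40 with SeMSNs. SeMSNs library 3 was 1.70 times the highest control, far below the other SeMSNs libraries, and the log2 difference over all libraries was 2.49 ± 0.55. Irx2 (ENSMUSG00000001504; chromosome 13, 72628820 to 72634198, plus strand) had 38, 21 and 11 counts in controls and 193, 159 and 82 with SeMSNs. Its lowest SeMSNs library was 2.09 times its highest control, with a log2 difference of 2.56 ± 0.519.

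En1 (ENSMUSG00000058665; chromosome 1, 120602418 to 120607992, plus strand), the Engrailed factor of the boundary region that adult midbrain dopamine neurons keep, did not separate the groups. It had 5, 19 and 1 counts in controls and 51, 57 and 8 with SeMSNs, so that control 2 lay above SeMSNs library 3. The log2 difference was 2.11 ± 1.01, and 3.60 without control 2. In control 2 the dopamine transporter Slc6a3 stood at 39.2 CPM and the nicotinic receptor subunit Chrna6, also a dopamine neuron gene, at 7.70 CPM, against at most 5.21 and 1.35 CPM in the other brain libraries. Their list was less apart: its 11 genes other than En1 summed to 281 CPM in control 2 and to 187 and 223 CPM in controls 1 and 3. With SeMSNs the sum was 264, 231 and 127 CPM. Ddc and Slc18a2 of the list were also highest in control 2, whereas Dlk1 and Slc10a4 were highest in control 3 (82.0 and 9.93 CPM). Control 2 also held the muscle markers given above. At that muscle share of 1.11%, the En1 level of control gastrocnemius would give 0.0546 CPM in control 2, where En1 stood at 1.13 CPM. The part of the dopamine neuron and muscle markers in the En1 level was not tested.

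Hoxb3 (ENSMUSG00000048763; chromosome 11, 96323326 to 96347930, plus strand), a Hox gene of the caudal hindbrain and spinal cord, was found in 1 brain library. SeMSNs library 1 had 38 counts and the other 5 brain libraries 0, and the gene did not pass the filter on low counts in brain. SeMSNs libraries 2 and 3 were at 0 like the controls. Without TMM scaling its level in SeMSNs library 1, 2.13 CPM, was at least 12.6-fold higher than the control floor of 3 counts per library (0.169 CPM). Antisense Hoxb3os exons cover 52.9% of its exon bases, and that gene had 3 counts in SeMSNs library 1 and 0 in the other brain libraries.

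**Figure D1:**
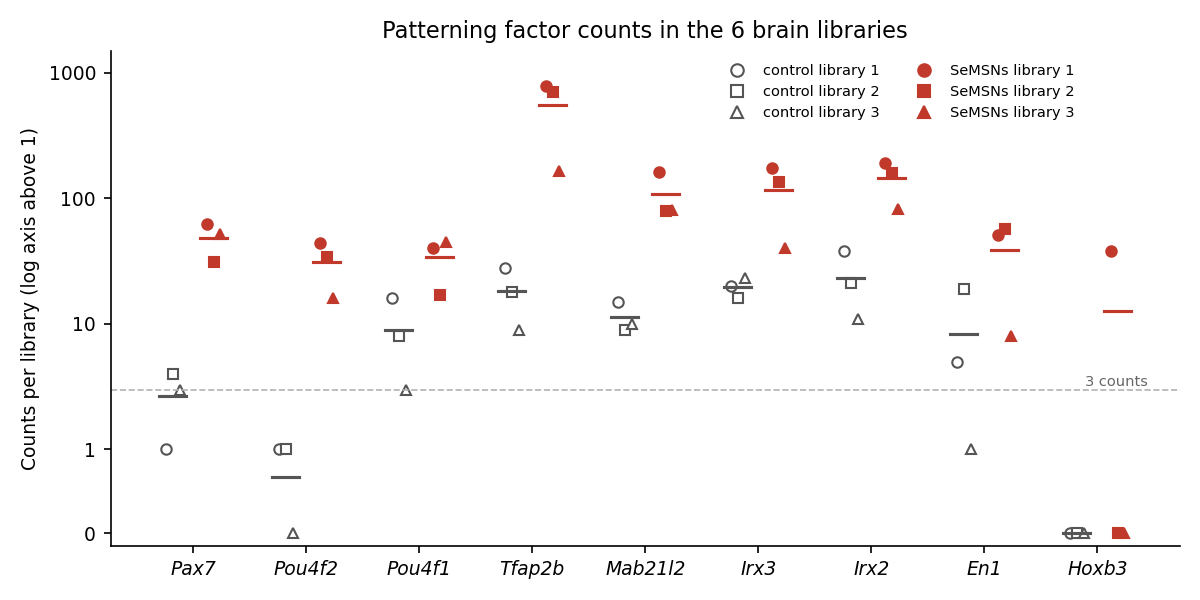
Counts of the 9 genes in each of the 6 brain libraries, on a log axis above 1 count, with open grey symbols for controls, filled red symbols for SeMSNs, a bar at each group mean and a dashed line at 3 counts. Tfap2b runs from 9 counts in control 3 to 782 in SeMSNs library 1, En1 overlaps between groups, and Hoxb3 has counts in SeMSNs library 1 alone.

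Of the 9 genes, 8 passed the filter on low counts in brain, and in 7 every SeMSNs library lay above every control. Such separation held for 9.92% of the 16082 genes tested upward and for 10.9% downward. A fitted log2 difference of at least 1 held for 8 of the genes and for 3.45% of all genes tested. These counts restate how the genes were chosen and support nothing by themselves. By size of the fitted difference the genes ranked from 10 (Pou4f2) and 16 (Tfap2b) through 27 (Pax7), 51 (Mab21l2), 83 (Irx2) and 88 (Irx3) to 128 (En1) and 176 (Pou4f1) of 16082. All had been low at the start: mean control levels were 0 to 0.258 FPKM, at or below the level of 5.02% of the genes tested, whose median was 3.70 FPKM.

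SeMSNs library 3 split the genes. Against the mean of SeMSNs libraries 1 and 2, its CPM was 1.58 times for Pou4f1, 1.12 times for Pax7 and 0.669 times for Mab21l2. For these 3 genes library 3 lay between or above the other SeMSNs libraries. It was 0.464 times for Irx2, 0.409 for Pou4f2, 0.259 for Irx3, 0.221 for Tfap2b and 0.147 for En1. The summed cerebellar list was at 0.0378 times and the other hindbrain transcription factors (21 genes, such as Zic1, Zic2, Barhl1 and Lbx1) at 0.0864 times. These 2 lists are not separate, since Zic1, Zic2 and Barhl1 are in both. In SeMSNs libraries 1 and 2 Zic1 held 572 and 599 CPM and Zic2 201 and 184 CPM, of hindbrain list sums of 861 and 868 CPM.

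Set against the control mean, SeMSNs library 3 was 22.5 times for Pou4f2, 18.4 for Pax7, 8.55 for Tfap2b, 6.82 for Mab21l2, 4.75 for Pou4f1, 3.34 for Irx2, 1.94 for Irx3 and 0.887 for En1, while its cerebellar list was at 0.760 times the control mean. SeMSNs libraries 1 and 2 together were 55.0 times the control mean for Pou4f2, 38.6 for Tfap2b, 16.5 for Pax7 and 3.01 for Pou4f1, and 20.1 times for the cerebellar list. With both of those libraries left out, a choice made after seeing the data, the fitted log2 difference was 4.16 for Pax7, 4.29 for Pou4f2, 3.10 for Tfap2b, 2.77 for Mab21l2, 2.25 for Pou4f1, 1.75 for Irx2 and 0.97 for Irx3, and −0.14 ± 1.47 for En1. These values rest on 1 SeMSNs library, which is assumed to vary as the controls do.

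**Figure D2:**
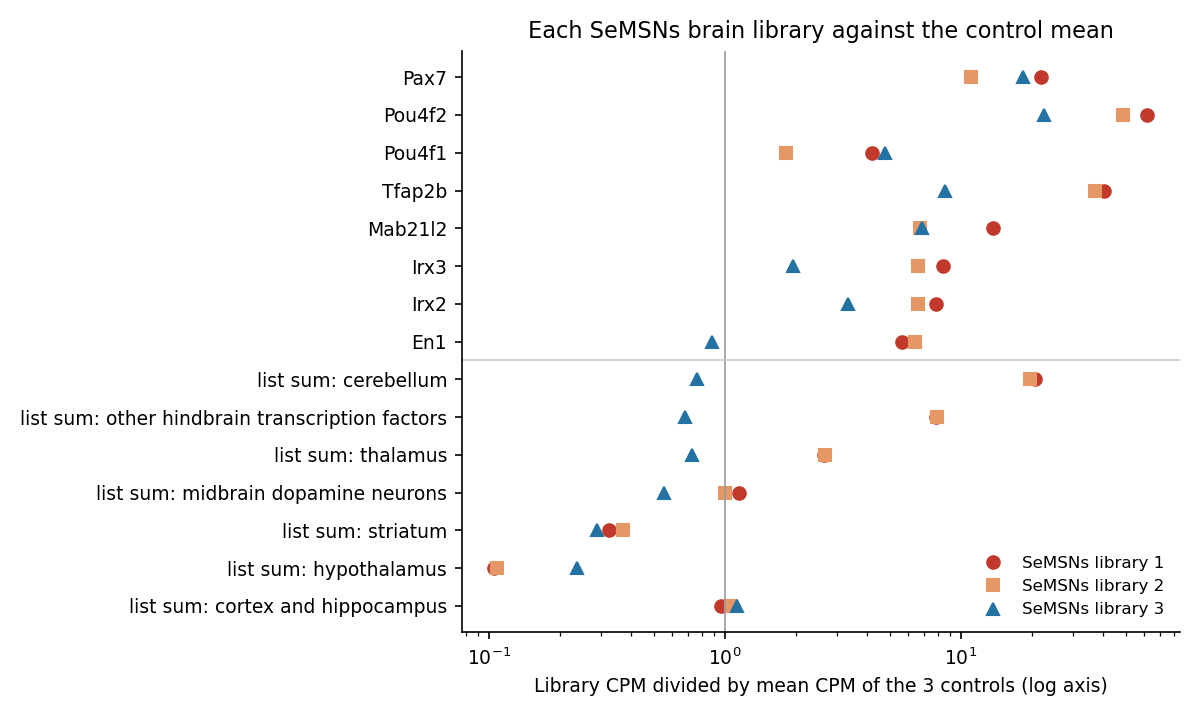
Level of each gene, and of summed marker lists, in SeMSNs brain libraries 1, 2 and 3 divided by the mean of the 3 controls, in CPM on a log axis with a line at 1. In library 3 Pax7, Pou4f2, Tfap2b and Mab21l2 stay 6.82 to 22.5 times the control mean while the cerebellar list is at 0.760 times, and the striatal and hypothalamic lists lie below 1 in all 3.

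Across the 6 brain libraries the genes followed each other to different degrees. On log2(CPM + 0.5), Pearson's r with the mean of the genes was 0.992 for Pou4f2, 0.990 for Tfap2b, 0.982 for Irx2, 0.980 for Mab21l2, 0.935 for Irx3, 0.930 for Pax7, 0.806 for En1 and 0.798 for Pou4f1 (n = 6 libraries). That mean is over the 8 genes that passed the filter, so without Hoxb3. It holds the gene it is set against, which raises each r. The pair least alike was Pou4f1 and En1 (r = 0.405) and the pair most alike Pou4f2 and Tfap2b (0.993). With the summed cerebellar list r was 0.952 for Irx3 and 0.863 for En1, but 0.597 for Pax7 and 0.334 for Pou4f1. These values describe 6 libraries that share the group difference by which the genes were chosen.

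Other genes were ranked by the same measure, with the genes of the set and predicted or clone-based names left out beforehand. Of these, 568 had an r over 0.9 with the mean of the genes. None of the 10 closest of those ranked is a patterning factor. They were Spata5l1 (0.997), Thrsp, Zfp324 and Ecm2 (0.993 each), Zfp341 and Thoc7 (0.992), Mapk8ip2 (0.991), Echdc2 (0.990), and Timm8a1 and Rpl7l1 (0.989). The measure ignores the size of a change: Mapk8ip2 went from 341 to 360 CPM in controls to 396 to 424 CPM with SeMSNs, whereas Thrsp, a gene of lipid synthesis, went from 10.6 to 16.5 CPM to 31.1 to 49.1 CPM. The gene nearest Irx3 was the potassium channel Kcnk12 (0.999), the gene nearest Pax7 the mitochondrial import subunit Timm50 (0.996), and the gene nearest En1 was Tacc2 (0.997).

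The relatives of the 9 genes within their families could be tested in brain, though they share its libraries. Of 23 paralogues, 10 passed the filter: 9 were higher with SeMSNs and 1 lower, with a median log2 difference of 2.25, against 0.01 over all genes tested. Pax3 and Tfap2a had under 10 counts in every control and passed only through SeMSNs libraries, so that the filter tilts the split and the median upward. Pax5 would not have passed on its controls alone, which adds to the tilt. Pax3 and Tfap2a are also in the counts of unadjusted p, DESeq2 calls and separated groups below, which are tilted in the same way. Pax5 is also in the count of unadjusted p. In edgeR's quasi-likelihood test, adjusted by Benjamini-Hochberg over all genes, 0 of them passed the threshold of 0.05, and over the whole brain 1 gene (0.00622%) passed upward and 0 downward. Before adjustment 8 paralogues had a p under 0.05, all higher, where 7.4% of all genes were higher and 8.03% lower by that rule. DESeq2 called 6, all higher, against 1.9% of genes higher and 2.33% lower. In 5 every SeMSNs library was above every control, where 9.92% of all genes tested lay wholly above and 10.9% wholly below.

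Mab21l1, the paralogue of Mab21l2, was at 1.24, 1.97 and 3.16 CPM in controls, against 54.3, 54.9 and 8.36 CPM with SeMSNs. Its log2 difference was 4.20 ± 0.784, with an adjusted p of 0.255 by edgeR and 1.24e-07 by DESeq2. Pax3, the partner of Pax7 in dorsal midbrain, had 0 counts in every control and 92, 84 and 19 with SeMSNs. It passed the filter through SeMSNs libraries alone, so no test is given for it. En2, which in the adult is abundant in cerebellum, was at 1.39 to 2.09 CPM in controls and at 70.7, 71.0 and 2.93 CPM with SeMSNs (0.255 and 0.00213). Irx1 had 17 to 32 counts in controls and 132, 113 and 51 with SeMSNs, an order of libraries like that of Irx2. The summed paralogues held 225 and 214 CPM in SeMSNs libraries 1 and 2, 28.0 CPM in library 3 and 15.7 to 22.7 CPM in controls. Most of the SeMSNs level was thus in the 2 libraries high in cerebellar markers.

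Of 27 midbrain transcription factors 19 were tested, 14 higher and 5 lower, with a median of 0.68. Pax3 and Tfap2d are in this list and among the paralogues, so both counts hold them. Pax3 and Sox14 had under 10 counts in every control and passed the filter through SeMSNs libraries, which tilts the split and the median upward. Barhl2 would not have passed on its controls alone, which adds to the tilt. Pax3 and Barhl2 are also in the counts of higher genes below. By edgeR 0 passed. Before adjustment 7 were higher and 1 lower with a p under 0.05, against 7.4% and 8.03% of all genes. By DESeq2 6 were called higher and 1 lower, against 1.9% and 2.33%. Ebf3, a factor of early neurons, was at 3.76, 5.61 and 6.04 CPM in controls, against 24.1, 16.7 and 14.0 CPM with SeMSNs, high in library 3 too, with a log2 difference of 1.83 ± 0.282 (adjusted p 0.229 by edgeR and 3.9e-06 by DESeq2). Barhl2 was at 0.298 to 0.998 CPM in controls and at 26.4, 23.1 and 1.30 CPM with SeMSNs. It would not have passed the filter on its controls alone, so no test is given for it. The summed list did not separate the groups, with 172 to 320 CPM in controls and 173 to 272 CPM with SeMSNs.

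Genes of the boundary organiser itself showed no common direction. Of 15, 10 were tested, 5 higher and 5 lower, with a median of −0.03, and 0 passed by edgeR. Before adjustment En2, which is also among the paralogues, had a p under 0.05 and was higher, and DESeq2 called it. Pax5, also a paralogue and among the 5 higher, was at 0.111 to 0.716 CPM in controls. With SeMSNs it was at 1.95, 3.03 and 0.706 CPM. It would not have passed the filter on its controls alone, so no test is given for it. Genes of neurons that use the transmitters of the region were followed as well. Among 11 dopamine neuron genes other than En1, 10 were tested, of which 2 were higher and 8 lower with a median of −1.02. By edgeR 0 passed, although 1 was higher and 4 were lower with a p under 0.05 before adjustment. DESeq2 called 3, all lower. Over all brain genes 7.4% were higher and 8.03% lower by unadjusted p, and DESeq2 called 1.9% and 2.33%. Ddc, which makes dopamine from its precursor, differed by −0.86 ± 0.217 in edgeR's fit with an adjusted p of 0.029 by DESeq2, and Dlk1 by −1.89 ± 0.649 with 0.0421. Among 10 serotonin neuron genes 3 were higher and 6 lower of 9 tested. By edgeR 0 passed, although 2 were lower with a p under 0.05 before adjustment, and 1 of these was called by DESeq2, which is Ddc again. Tph2, their rate-limiting enzyme, was at 0.444 to 6.85 CPM in controls and at 4.65, 19.4 and 1.09 CPM with SeMSNs.

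Other Hox genes, taken as a sum, were highest in SeMSNs library 1, the library with Hoxb3. The 29 other Hox genes summed to 205 counts there, against 10 and 5 in SeMSNs libraries 2 and 3 and 10, 45 and 6 in controls, and none of them passed the filter in brain. In SeMSNs library 1 Hoxc4 had 47 counts, Hoxb5 41, Hoxa4 23 and Hoxa3 17, which are among the more anterior Hox genes. In control 2 the largest was the posterior gene Hoxc10 with 19. Control 2 also held the muscle markers given above, and in control gastrocnemius the 29 Hox genes summed to 142 to 194 CPM. The part of muscle RNA in the Hox counts of control 2 was not tested. Dbh, the enzyme that makes noradrenaline, stood at 11.5 CPM in SeMSNs library 1 and at most 1.43 CPM in the other brain libraries. The list of 8 noradrenaline neuron genes it comes from was mixed. Of 5 tested, 2 were higher and 3 lower, with a median of −0.95. Their sum was 106, 85.4 and 50.9 CPM with SeMSNs and 74.7 to 89.1 CPM in controls. The glycine transporter Slc6a5, a marker of hindbrain and spinal glycine neurons, was at 64.4, 37.7 and 1.41 CPM with SeMSNs and at 0.225 to 0.277 CPM in controls. It had under 10 counts in every control and passed the filter through SeMSNs libraries, so no test is given for it. Of 6 genes of such neurons 5 were tested, 3 higher and 2 lower, with a median of 0.42. Their sum was 317, 248 and 163 CPM with SeMSNs and 131 to 252 CPM in controls. The part of such markers in the Hoxb3 count was not tested.

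Outside brain the genes had levels of their own. Per length, as the mean of the 6 libraries of a tissue, kidney ranked Irx3 at 7.38 ± 1.10 FPKM (SD, n = 6), Tfap2b at 5.25 ± 1.23, Irx2 at 3.91 ± 1.02 and Hoxb3 at 2.74 ± 0.438. The libraries of each of these genes overlapped with those of the next in order, while Irx3 and Hoxb3, the ends of the order, did not overlap. Pax7, Pou4f2 and En1 had 0 counts in all kidney libraries, Pou4f1 had 0 to 6 counts and Mab21l2 0 to 6. Gastrocnemius ranked En1 at 1.60 ± 0.499 FPKM, Irx3 at 1.04 ± 0.323, Pou4f1 at 0.607 ± 0.188, Pax7 at 0.298 ± 0.0585 and Hoxb3 at 0.132 ± 0.0373. Neighbours overlapped from En1 to Pou4f1, and Pax7 and Hoxb3 each lay below the gene before them in every library. There Pou4f2 had 0 counts in all libraries, and Irx2, Tfap2b and Mab21l2 had at most 6 in any.

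**Figure D3:**
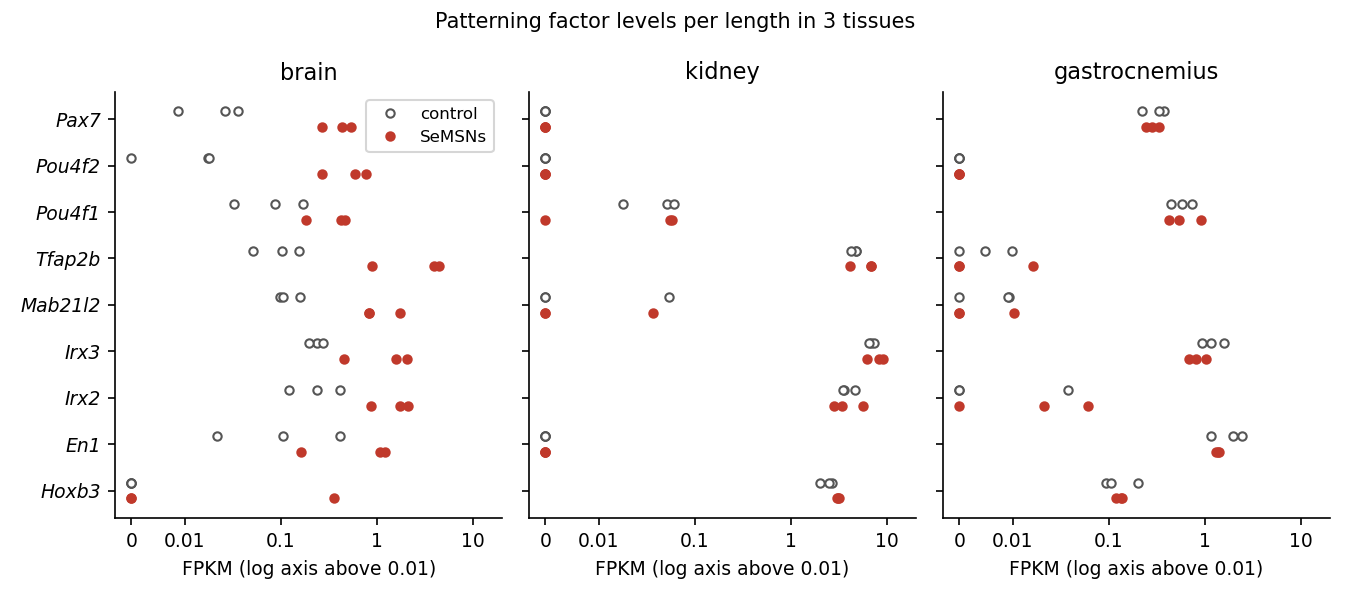
FPKM of the 9 genes in every library of brain, kidney and gastrocnemius, on an axis that is logarithmic above 0.01, with open symbols for controls and filled symbols for SeMSNs. The groups are apart in brain for 7 genes, while in kidney (Irx3, Tfap2b, Irx2, Hoxb3) and gastrocnemius (En1, Irx3, Pou4f1, Pax7) the groups overlap for each of these genes but Hoxb3 in kidney, where all SeMSNs libraries lie above all controls.

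The tissue difference was tested over the 12 kidney and gastrocnemius libraries, where edgeR called 41.1% of 15841 genes higher in kidney and 36% lower. Irx3 and Hoxb3, with at least 11 counts in every one of these libraries, were higher in kidney, by 2.22 ± 0.142 log2 units (adjusted p 9.72e-09) and 3.73 ± 0.176 (4.91e-10). The others passed the filter only through the tissue where they were high, so their differences are given without a test. Tfap2b was 9.21 ± 0.356 log2 units higher in kidney and Irx2 6.98 ± 0.445, and Pou4f1 differed by −4.52 ± 0.452. Pax7 and En1, at 0 counts in kidney, were at least 12.6-fold and 27.9-fold higher in gastrocnemius, in CPM without TMM scaling and against a floor of 3 counts per library. Pax7 in muscle is known from satellite cells, the stem cells of the fibre.

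In kidney, 4 of the genes could be tested for SeMSNs against control and 0 passed by edgeR, where 0 of 15051 genes passed upward and 1 (0.00664%) downward. None of the 4 had a p under 0.05 before adjustment, a rule that 2.52% of kidney genes met upward and 3.59% downward, and DESeq2 called 0 of the 4, against 0.0602% upward and 0.143% downward. Tfap2b counts were 1001, 1063 and 786 in controls and 1345, 722 and 1407 with SeMSNs, so that the groups overlapped (log2 difference 0.33 ± 0.173, adjusted p 0.772). Irx3 differed by 0.14 ± 0.137 (adjusted p 0.825) and Irx2 by −0.03 ± 0.241 (adjusted p 0.983). Hoxb3 was at 14.6 ± 2.19 CPM (SD, n = 3) in controls and 18.3 ± 0.624 CPM with SeMSNs. Every SeMSNs kidney library lay above every control for it, as for 6.59% of genes tested (6.9% lay wholly below), with a log2 difference of 0.32 ± 0.143 and an adjusted p of 0.772 by edgeR.

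In gastrocnemius 5 of the genes could be tested and 0 passed by edgeR, where 0 of 13150 genes passed upward and 3 (0.0228%) downward. None of the 5 had a p under 0.05 before adjustment, against 6.27% of muscle genes upward and 6.71% downward, and DESeq2 called 0 of the 5, against 0.307% and 1.01%. Irx3 had 85, 154 and 112 counts in controls and 59, 95 and 69 with SeMSNs, or 5.67 ± 1.26 and 3.94 ± 0.637 CPM (SD, n = 3). Once scaled, every SeMSNs library lay below every control, as for 8.14% of genes tested (10.3% lay wholly above), with a log2 difference of −0.52 ± 0.253 and an adjusted p of 0.417. In FPKM, which carry no TMM scaling, the highest SeMSNs library (1.04) lay above the lowest control (0.939). En1 differed by −0.46 ± 0.33 (adjusted p 0.559), Pax7 by −0.10 ± 0.333 (0.922) and Pou4f1 by 0.08 ± 0.352 (0.939). The SeMSNs difference of Irx3 in kidney was 0.68 ± 0.275 log2 units above that in gastrocnemius, with an adjusted p of 0.759 by edgeR.

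**Figure D4:**
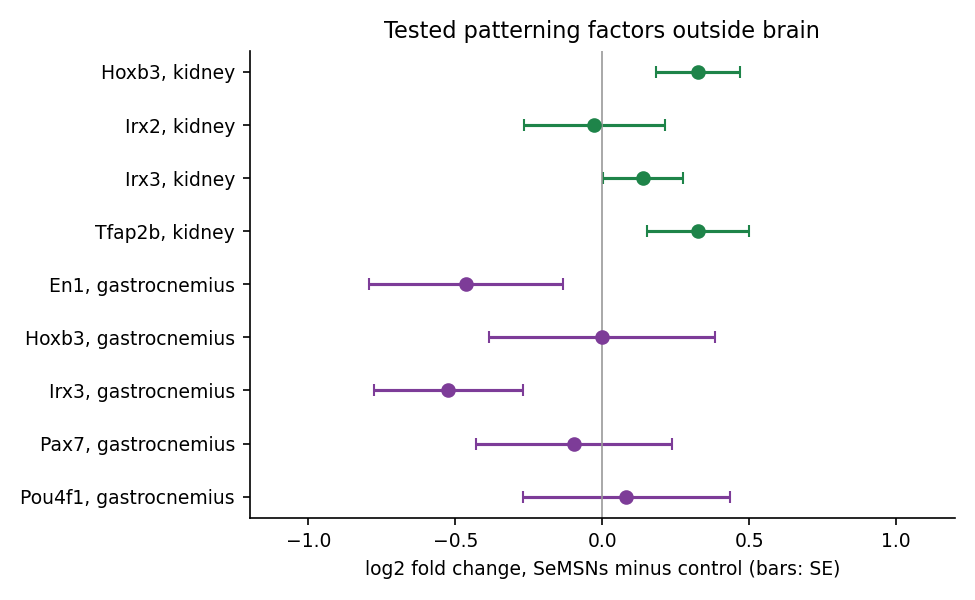
Fitted log2 difference of SeMSNs from control, with SE bars, for the 4 genes tested in kidney (green) and the 5 tested in gastrocnemius (purple). All lie between −0.52 and 0.33.

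Genes found in more than one tissue had unlike SeMSNs differences. For Irx3 it was 2.49 log2 units in brain, against 0.14 for kidney and −0.52 for gastrocnemius, and for Tfap2b 4.83 in brain and 0.33 in kidney. Pax7 differed by 4.05 in brain and −0.10 in gastrocnemius, where its counts (29 to 46 in controls and 29 to 42 with SeMSNs) were close to those in SeMSNs brain (31 to 62). Differences between brain and the other tissues were not tested, since the brain values had chosen the genes.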

How the data were processed

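The data are whole-number counts for every gene in each library, as deposited, and FPKM values that the authors made from them, per the file headers. The submitters' processing notes name the GRCm38 build, with aligner, counter, annotation and strandedness not given in the sources used here. SeMSNs library 3 of each tissue carries the number 4 in the labels. The 9 genes and the marker lists were chosen with earlier results of these data known, and all list members were followed whatever their values.

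Counts of each tissue were fitted by edgeR 4.0.16 under R 4.3.3 (minimum count 10 and minimum total 15 in filterByExpr, TMM scaling, glmQLFit and glmQLFTest, Benjamini-Hochberg adjustment over all genes tested, threshold 0.05). Kidney and gastrocnemius were compared in a fit of 12 libraries with 4 groups. SE is the absolute log2 fold change over the square root of F, and CPM values are TMM-scaled. Genes without counts in a group were compared with a floor of 3 counts per library. Total counts were 17357799 to 22146406 per library. The fits were tested on simulated data with known changes. Named genes are the 9, up to 3 of each list by smallest brain p, and the closest by Pearson's r on log2(CPM + 0.5); Hox genes, Irx1, Tph2, Slc6a3 and Chrna6 are list members chosen after their values were seen. Alternatives were DESeq2 1.42.0, limma 3.58.1 on log2(FPKM + 1) and log2(FPKM + 0.1), RLE scaling, no filter, a replicate block and leaving out libraries. Gene positions in the table and the promoters both use GRCm38.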

Additional observations from a re-analysis of the deposited data

Results flagged for a closer look

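Irx3 had opposite directions in brain and gastrocnemius. Every SeMSNs brain library lay above every brain control, as for 9.92% of genes tested there. Every SeMSNs gastrocnemius library lay below every gastrocnemius control, as for 8.14% of genes tested there. The log2 difference was 2.49 in brain and −0.52 in gastrocnemius, where the adjusted p by edgeR was 0.417. The difference between the tissues was not tested, because the brain values had chosen the gene. In FPKM, without TMM scaling, the gastrocnemius groups overlapped.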

How the results depend on the processing

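In brain the fitted differences of 8 genes were recomputed under 88 alternatives, of which 77 stayed within the spread between replicates, 10 moved beyond it with the same direction and 1 turned: En1 was −0.14 with SeMSNs libraries 1 and 2 left out. All alternatives reuse the same libraries, and leaving out 1 of 3 seldom moves a mean by more than their spread. Staying within it was thus largely set in advance. Over these alternatives Pou4f1 ranged from 1.42 (without control 3) to 2.51 (without control 1), Irx3 from 0.97 to 2.90, Tfap2b from 3.10 to 5.26 and En1 up to 3.60 (without control 2). The 40 alternatives in kidney and 50 in gastrocnemius left the tested genes on the same side of the threshold. Adjusted p by edgeR or DESeq2 was 0.711 or more in kidney and 0.158 or more in gastrocnemius. The limma fits are not among these alternatives, nor among the 88 in brain. Counts of all genes past the threshold moved more. In brain 1 gene passed, against 665 by DESeq2, 0 without SeMSNs libraries 1 and 2, and 0 to 2852 with 1 library left out, the highest without SeMSNs library 3. In kidney 1 passed, against 5 without a filter, 27 by DESeq2, 0 by limma with either pseudocount, and 0 to 4 with 1 library left out. In gastrocnemius 3 passed, against 31 without a filter, 163 by DESeq2, and 0 to 335 with 1 library left out, the highest without control 3. Kidney against gastrocnemius kept 12040 to 12423 calls with 1 library left out. Its split of 6509 higher and 5707 lower became 9265 and 3262 by limma on log2(FPKM + 1) and 9311 and 3264 on log2(FPKM + 0.1). The cause of these shifts was not tested. At 3 libraries a group and 1 to 23 counts in several controls, the size of the brain differences is loosely set.

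Replicate numbers did not pair the libraries: residuals of control and SeMSNs libraries with the same number correlated at −0.157 to 0.111 over 9 pairs, and 2 of 9 controls were nearest their own number. Kidney and gastrocnemius libraries with the same number correlated at 0.123, 0.112 and 0.117 in controls and at −0.05, 0.109 and 0.0734 with SeMSNs, so 4 of 6 pairs were over 0.1, all 3 control pairs among them. With the replicate number as a block 2 genes passed in brain, 0 in kidney, 3 in gastrocnemius and 12116 between kidney and gastrocnemius.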
